A study of Homo sapiens with 6 samples.

Results

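The nuclear genes of oxidative phosphorylation were 109 of the 60448 genes in the deposited tables. They were chosen by gene name alone: names beginning with NDUF, SDHA to SDHD, SDHAF, UQCR, COX followed by a digit, or ATP5, without antisense genes and pseudogenes. They comprised 84 subunits of complexes I to V or their isoforms and paralogues, 23 assembly factors and 2 read-through genes. RPE1, a human retinal pigment epithelial line made immortal, was assayed by 4sU-seq, in which cells take up the uridine analogue 4-thiouridine and the RNA they make meanwhile is collected and sequenced. The 3 groups of 2 libraries each were wild type cells without doxycycline and without hydrogen peroxide (H2O2), wild type cells without doxycycline after H2O2, and cells with doxycycline-induced knockdown of NuMA (TDIF) after H2O2. NuMA, the product of NUMA1, organises the mitotic spindle poles, and the study asked about its role in DNA repair. Doxycycline and the knockdown formed 1 factor, untreated knockdown cells were not analysed here, and the dose and duration of H2O2, the labelling time and the number of clones are not given in the labels. Nothing in the labels says whether the 2 libraries of a group were separate cultures, and the p-values therefore reflect a spread between libraries that may be technical.

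The tables held 1 value per gene and group, pooled over the 2 libraries, from which mean counts per library were recovered. Values of single libraries were not used here, and group means are given instead, with the standard error (SE) that the deposited p-value implies for each fold change. For the members ATP5G2, COX7B, NDUFB9, NDUFV1, SDHD and UQCR10 among those described below, a factor common to the 3 groups may be missing from the mean counts, which leaves their changes as they are. Per library, the recovered mean counts added up to 14786600 in untreated wild type cells, 18341810 after H2O2 and 16828003 in the knockdown. In the authors' deposited table the gene at the median of those reaching 50 mean counts moved by 0.29 on the log2 scale after H2O2 and by -0.29 in the knockdown, so every change below is a log2 fold change relative to that median gene unless the deposited table is named. A gene is said to have risen or fallen only where its adjusted p was under 0.05 both in the authors' deposited table and in a normal test of the centred change, with Benjamini-Hochberg adjustment over all tested genes. NUMA1 had 1168 mean counts untreated, 1571 after H2O2 and 933.5 in the knockdown, a knockdown change of -0.46 ± 0.12 (normal test, adjusted p = 0.00114). Of the markers of differentiated retinal pigment epithelium, TYR, RLBP1 and RPE65 stayed at 6 mean counts or fewer in every group. MITF had 583.5 to 674. OTX2 had 387 untreated, 166.5 after H2O2 and 160.5 in the knockdown, and BEST1 had 4.5, 63 and 33.5. After H2O2 OTX2 changed by -1.50 ± 0.26 and BEST1 by 3.25 ± 0.65. The summed mean counts of 6 fibroblast markers were 991.5 untreated, 5282 after H2O2 and 3818 in the knockdown, led by PDGFRB. The sums of 4 epithelial markers were 19385, 43190 and 28839.5, led by KRT8. The sums rested on few genes: LUM and EPCAM stayed under 3 mean counts in every group. The highest epithelial marker alone had 35005 after H2O2. The sums of 4 neuronal markers, with 5 entries of which 1 had 0 counts in every group, were 516, 633 and 355.5, led by MAP2. The part of these marker lists in the results was not tested. Fewer cells of a type and less RNA per cell cannot be told apart in these bulk libraries.

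Oxidative phosphorylation takes electrons from NADH at complex I and from succinate at complex II, passes them through coenzyme Q, complex III and cytochrome c to oxygen at complex IV, and uses the resulting proton gradient to make ATP at complex V, the ATP synthase. Complexes I, III, IV and V combine subunits made from the mitochondrial genome with subunits made from nuclear genes, whereas complex II is wholly nuclear. Assembly factors insert cofactors and join the parts but are not kept in the finished enzyme.

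After H2O2, members fell far more often than they rose. Of the 102 tested members, 34 fell, which is 33.3%, and 1 rose, against 9.6% of all 18522 tested genes that fell and 16.6% that rose. The median change was -0.59 over the tested members and 0.048 over all tested genes, and 87 of 102 lay below 0. The 7 members without a test were ATP5J2-PTCD1, ATP5L2, COX4I2, COX6A2, COX7B2, COX8C and NDUFC2-KCTD14, all with 3 mean counts or fewer in every group. Without centring, in the authors' deposited table, 7 members were called higher and 34 lower. That is 17.1% higher among the called members in place of 2.86%. Of all tested genes, 26.7% were called higher and 9.6% lower without centring. The centred test alone called 54 members lower, and leaving out members with a named pseudogene and the read-through genes left 22 of 60 lower.

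In the knockdown, both arms having received H2O2, members rose far more often than they fell. Of 102 tested members 42 rose, which is 41.2%, and 3 fell, against 6.81% of all 18266 tested genes that rose and 14.4% that fell. NDUFAF4 and SDHC were among those that fell. The median change was 0.49 over the tested members and 0.015 over all tested genes. Without centring 42 members were called higher and 9 lower, which is 82.4% higher among the called members in place of 93.3%. Without members with a named pseudogene 18 of 60 rose and 1 fell. Both comparisons used the same H2O2-treated wild type libraries, so a value that was by chance low in those libraries would be lower in the first and higher in the second, and the values of the comparisons are set side by side below without a test between them.

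Genes with at least 50 mean counts in a comparison were called more often in general. Among these genes 13.4% fell and 21.2% rose after H2O2, and 10.1% rose and 21.5% fell in the knockdown. Of the 92 members at that level, 31 fell and 0 rose after H2O2, and 0 were higher at an unadjusted p under 0.05 in the normal test. In the knockdown 42 of the 92 rose and 3 fell.

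**Figure D1:**
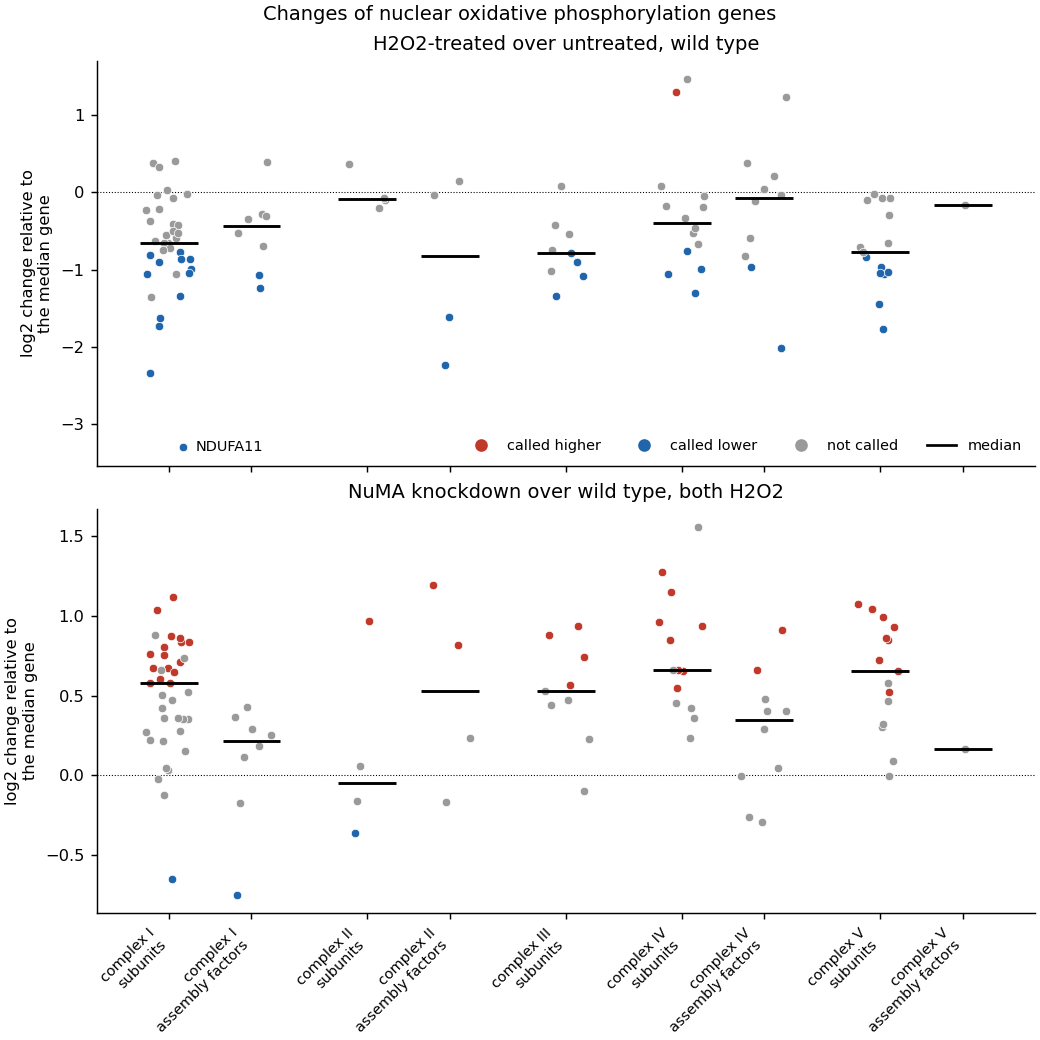
Log2 change relative to the median gene (vertical axis) of each tested member, by complex and by subunit or assembly factor (horizontal axis), after H2O2 above and in the knockdown below. Points are genes, coloured by their call, horizontal bars are medians. Most points lie below 0 in the upper panel and above 0 in the lower panel, and NDUFA11 lies lowest at -3.30.

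Subunits and assembly factors were then set side by side. Of 79 tested subunits 28 fell and 1 rose after H2O2, with a median change of -0.66. Of 23 assembly factors 6 fell and 0 rose, with a median of -0.30. At an unadjusted p under 0.05 in the normal test 10 assembly factors were lower and 1 higher. Of all tested genes 9.6% fell and 16.6% rose. In the knockdown 38 of 79 subunits rose and 2 fell, with a median of 0.58. There 4 of 23 assembly factors rose and 1 fell, with a median of 0.25. At an unadjusted p under 0.05 in the normal test 8 assembly factors were higher and 1 lower. Of all tested genes 6.81% rose and 14.4% fell. The difference of the class medians, subunits minus assembly factors, was -0.35 after H2O2 and 0.33 in the knockdown, and it was not tested. When the trend with gene span was removed it was -0.18 and 0.20. The 23 assembly factors are only those that the name rule takes. Of 35 tested assembly factors with other names, 11 fell and 1 rose after H2O2. Their median of -0.58 lay nearer to that of the subunits. In the knockdown 5 of 34 of them rose and 6 fell, with a median of 0.22. Levels differed too: in untreated cells the median subunit had 1369 mean counts per kb of transcript and the median assembly factor 346, isoforms and read-through genes left out.

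**Figure D2:**
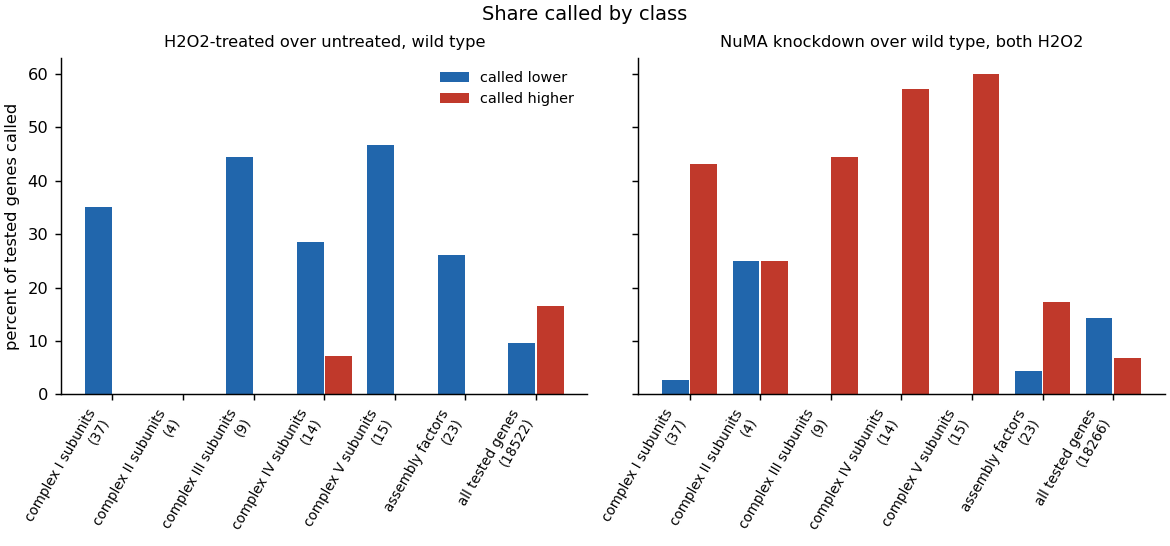
Percent of tested genes called lower (blue) and higher (red) in each class of members and among all tested genes, after H2O2 on the left and in the knockdown on the right. Numbers of tested genes stand in parentheses. Every subunit class but complex II has more calls lower than higher after H2O2 and more calls higher than lower in the knockdown.

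Complex I holds the largest group of members. Of its 7 nuclear core subunits, which carry the flavin and the iron-sulfur clusters, 3 fell after H2O2, NDUFS3 and NDUFS8 among them, with a class median of -0.86. In the knockdown 2 of the 7 rose, NDUFS3 and NDUFS8, and 1 fell, with a class median of 0.22. That median was the value of NDUFV2, with an SE of 0.87 and 9.5 and 9 mean counts in the groups compared. Of the 30 accessory subunits, which surround that core, 10 fell after H2O2 and 14 rose in the knockdown, with class medians of -0.66 and 0.61. Of the 8 complex I assembly factors, NDUFAF4 and NDUFAF5 fell after H2O2, and NDUFAF4 fell in the knockdown. Of all tested genes 9.6% fell and 16.6% rose after H2O2, and 6.81% rose and 14.4% fell in the knockdown. The 1 of 8 assembly factors that fell in the knockdown was near that last share.

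NDUFA11, an accessory subunit of the membrane arm of complex I, had the largest fall of any tested member after H2O2. Its gene (ENSG00000174886) lies on the minus strand at chr19:5891276-5904006 of hg38. Its mean counts were 1254.5 untreated, 154.5 after H2O2 and 152.5 in the knockdown. The level was thus high in untreated cells alone, and the values after H2O2 with and without the knockdown lay close together. The change after H2O2 was -3.30 ± 0.23 (normal test, adjusted p = 1.50e-42), a 9.88-fold fall, with a 95% interval of -3.76 to -2.85. The change in the knockdown was 0.27 ± 0.26 (normal test, adjusted p = 0.505), with a 95% interval of -0.24 to 0.79. The neighbouring gene RANBP3 on the same strand had 1339.5, 1263 and 1479 mean counts in the same order of groups. Exons of other genes cover 37.8% of the coding bases of NDUFA11, and 36.9% on the same strand, where a read-through gene, AC024592.12, overlaps it. That gene had 0.5 mean counts untreated and 0 in both other groups.

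Among the core subunits of complex I, NDUFS1, which carries iron-sulfur clusters of the matrix arm, had mean counts of 941.5 untreated, 1179 after H2O2 and 946.5 in the knockdown. Its changes were 0.033 ± 0.21 after H2O2 and -0.026 ± 0.11 in the knockdown, neither past the threshold. NDUFV1, which binds NADH and the flavin, had mean counts of 2579.5 untreated, 2031.5 after H2O2 and 2131 in the knockdown. NDUFV1 changed by -0.64 ± 0.20 after H2O2 and by 0.36 ± 0.11 in the knockdown, and it was called in neither comparison because the deposited adjusted p was above the threshold. NDUFS8, which holds iron-sulfur clusters, had mean counts of 2225 untreated, 1313.5 after H2O2 and 1808.5 in the knockdown. The level of NDUFS8 was lower in wild type cells after H2O2 than in the other groups, with changes of -1.05 ± 0.21 and 0.75 ± 0.10.

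The accessory subunits showed the same pair of directions in several genes of the membrane arm. NDUFB10 had mean counts of 2104 untreated, 1013 after H2O2 and 1518.5 in the knockdown, and changed by -1.34 ± 0.21 after H2O2 and by 0.87 ± 0.11 in the knockdown, both past the threshold. NDUFB9 had mean counts of 1228 untreated, 485 after H2O2 and 812.5 in the knockdown, with changes of -1.63 ± 0.21 and 1.03 ± 0.13, both past the threshold. In both genes the knockdown level lay between the other groups. NDUFS5, an accessory subunit on the intermembrane-space side, rose most among complex I subunits in the knockdown. Its mean counts were 2775.5 untreated, 2023 after H2O2 and 3582 in the knockdown, and its change in the knockdown was 1.11 ± 0.092 (normal test, adjusted p = 1.41e-31). After H2O2 NDUFS5 changed by -0.75 ± 0.20 and was not called, as its adjusted p in the authors' deposited table was 0.0608. NDUFA13, also known as GRIM-19, had few counts, 73.5 untreated, 17 after H2O2 and 26 in the knockdown, and changed by -2.34 ± 0.46 after H2O2 (normal test, adjusted p = 3.64e-06). NDUFAB1, the mitochondrial acyl carrier protein, had mean counts of 1374 untreated, 1143 after H2O2 and 958 in the knockdown and passed in neither comparison.

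Of the complex I assembly factors, NDUFAF4, which acts with NDUFAF3 early in assembly, had mean counts of 506 untreated, 295 after H2O2 and 143 in the knockdown. It fell by 1.07 ± 0.24 after H2O2 (normal test, adjusted p = 6.40e-05) and by 0.75 ± 0.21 in the knockdown (normal test, adjusted p = 0.00181), the largest fall of a member there. Its partner NDUFAF3 had mean counts of 1620.5 untreated, 2608 after H2O2 and 2308.5 in the knockdown, with changes of 0.40 ± 0.20 and 0.12 ± 0.097 that passed in neither comparison. NDUFAF5, which modifies an arginine of NDUFS7, had mean counts of 276 untreated, 143 after H2O2 and 139 in the knockdown. It fell by 1.23 ± 0.26 after H2O2 (normal test, adjusted p = 1.91e-05), and its change in the knockdown was 0.25 ± 0.24. The other 5 factors of complex I, ATP5SL, NDUFAF1, NDUFAF2, NDUFAF6 and NDUFAF7, passed in neither comparison.

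Of the 4 subunits of complex II, succinate dehydrogenase, 0 were called after H2O2, and 0 had an unadjusted p under 0.05 in the normal test. Their median change was -0.084, and of all tested genes 9.6% fell and 16.6% rose. SDHA, the flavin-carrying subunit, had mean counts of 1482.5 untreated, 1577 after H2O2 and 1153 in the knockdown, and SDHB, the iron-sulfur subunit, had 791 untreated, 903.5 after H2O2 and 769.5 in the knockdown. Their changes lay between -0.20 and 0.060 in both comparisons. The membrane anchors moved apart in the knockdown. SDHD had mean counts of 480.5 untreated, 561 after H2O2 and 895 in the knockdown and rose by 0.96 ± 0.13 (normal test, adjusted p = 7.43e-13). SDHC had mean counts of 932 untreated, 1473.5 after H2O2 and 936 in the knockdown and fell by 0.36 ± 0.11 (normal test, adjusted p = 0.00516). SDHC was highest after H2O2 in wild type cells, and its change after H2O2 of 0.37 ± 0.20 did not pass.

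Of the 4 assembly factors of complex II, 2 fell after H2O2, against 9.6% of all tested genes. SDHAF1, which helps to place iron-sulfur clusters in SDHB, had mean counts of 942.5 untreated, 243.5 after H2O2 and 234 in the knockdown. It changed by -2.24 ± 0.22 after H2O2 (normal test, adjusted p = 4.89e-22), a 4.72-fold fall. Like NDUFA11 it was high in untreated cells alone, and its change in the knockdown was 0.23 ± 0.20. SDHAF2, which attaches the flavin to SDHA, had mean counts of 411 untreated, 164 after H2O2 and 306.5 in the knockdown. SDHAF2 changed by -1.61 ± 0.26 after H2O2 (normal test, adjusted p = 1.24e-08) and by 1.19 ± 0.21 in the knockdown (normal test, adjusted p = 1.75e-07), where its level lay between the other groups. SDHAF4, a chaperone of flavin-bound SDHA, had 154.5 untreated, 210.5 after H2O2 and 304 in the knockdown and rose in the knockdown by 0.82 ± 0.21. SDHAF3 had 62 to 85.5 mean counts and passed in neither comparison.

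Complex III, the cytochrome bc1 complex, had 4 of 9 members fall after H2O2, against 9.6% of all tested genes. In the knockdown 4 of its 9 members rose, against 6.81% of all tested genes. Its small supernumerary subunits led in both, with 3 of 5 lower and 4 of 5 higher and medians of -0.90 and 0.74. UQCR10 had mean counts of 2292.5 untreated, 1104 after H2O2 and 1508.5 in the knockdown. It changed by -1.34 ± 0.21 after H2O2 (normal test, adjusted p = 3.65e-09) and by 0.74 ± 0.11 in the knockdown (normal test, adjusted p = 5.28e-10). UQCRQ had mean counts of 1008 untreated, 660 after H2O2 and 1031.5 in the knockdown, so that the knockdown and untreated levels lay close together and wild type cells after H2O2 were lower. UQCRQ changed by -0.90 ± 0.20 and 0.93 ± 0.13, both past the threshold. UQCRFS1, the Rieske iron-sulfur protein, had mean counts of 1915 untreated, 1358.5 after H2O2 and 1600.5 in the knockdown and fell by 0.79 ± 0.21 after H2O2. The core proteins UQCRC1 and UQCRC2 passed in neither comparison. UQCRC1 had mean counts of 3134 untreated, 2646.5 after H2O2 and 2997.5 in the knockdown, with changes of -0.53 ± 0.21 and 0.47 ± 0.090.

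**Figure D3:**
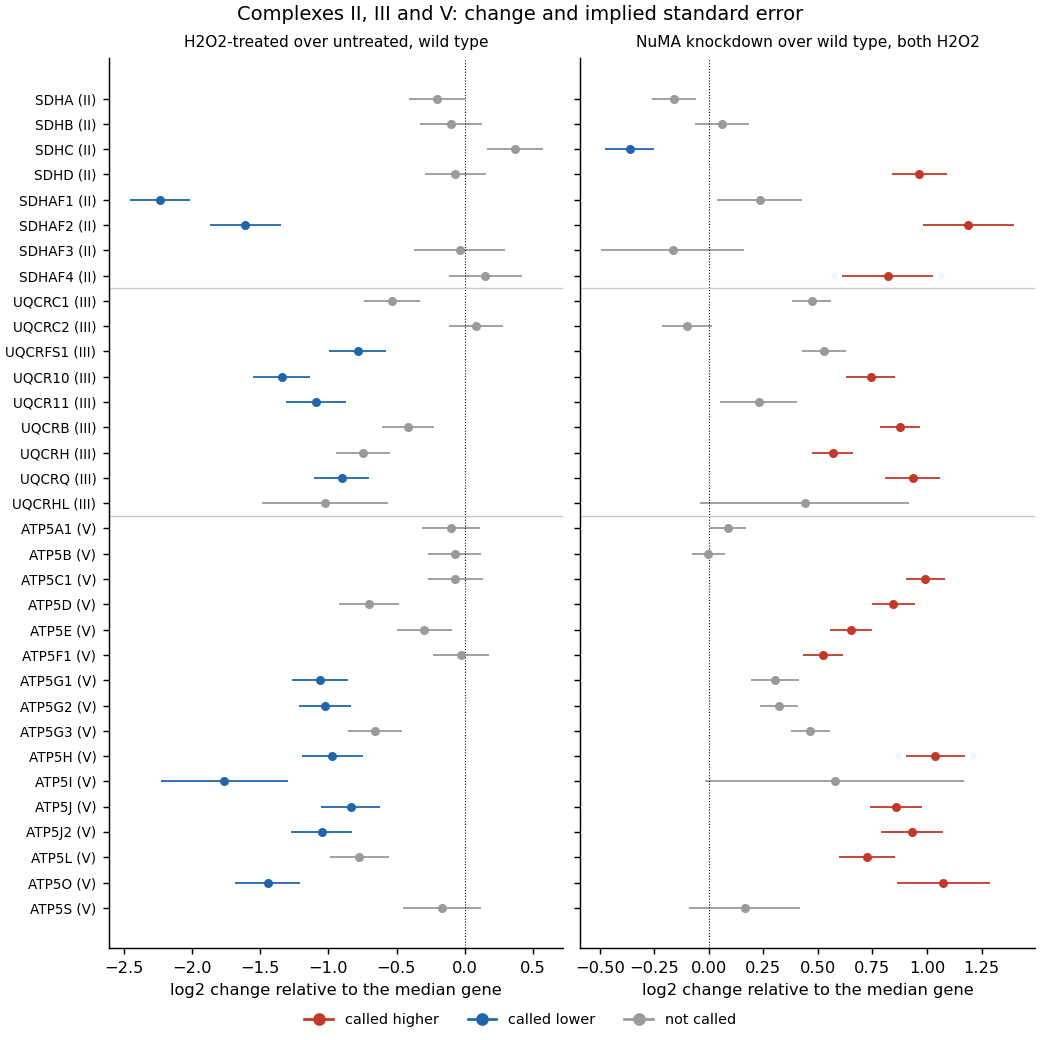
Log2 change relative to the median gene (horizontal axis) of each tested member of complexes II, III and V, after H2O2 on the left and in the knockdown on the right. Points are changes, lines reach 1 implied standard error to each side, and colours give the call. ATP5A1 and ATP5B lie near 0 in both panels, whereas UQCR10, UQCRQ, ATP5H and ATP5O lie below 0 on the left and above 0 on the right.

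Complex IV, cytochrome c oxidase, had 4 of its 11 commonly expressed nuclear subunits fall after H2O2 (COX5B, COX6A1, COX7A2 and COX8A), with a median of -0.53. In the knockdown 8 of the 11 rose, with a median of 0.66. Of all tested genes 9.6% fell after H2O2 and 6.81% rose in the knockdown. COX4I1, the largest nuclear-made subunit of the enzyme, had mean counts of 4295.5 untreated, 3634.5 after H2O2 and 5671.5 in the knockdown. It was not called after H2O2, at -0.53 ± 0.20, and rose by 0.93 ± 0.083 in the knockdown (normal test, adjusted p = 4.10e-27). COX5B, a zinc-binding subunit, had mean counts of 1883.5 untreated, 1160 after H2O2 and 1848.5 in the knockdown, lowest in wild type cells after H2O2. COX5B changed by -0.99 ± 0.21 and 0.96 ± 0.11, both past the threshold. COX6A1 had mean counts of 260 untreated, 153 after H2O2 and 303 in the knockdown, with changes of -1.05 ± 0.26 after H2O2 and 1.27 ± 0.20 in the knockdown (normal test, adjusted p = 2.33e-09), the largest rise of a member there that passed. COX7B had mean counts of 752 untreated, 888 after H2O2 and 1609.5 in the knockdown and stood highest in the knockdown. COX7B changed by -0.051 ± 0.22 after H2O2 and by 1.15 ± 0.11 in the knockdown (normal test, adjusted p = 1.65e-24).

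Of the 10 complex IV assembly factors, COX14 and COX19 fell after H2O2, and COX17 and COX7A2L rose in the knockdown. That is 2 of 10 in each, against 9.6% of all tested genes that fell after H2O2 and 6.81% that rose in the knockdown. COX7A2L helps complexes III and IV to join into supercomplexes. COX19, a copper-handling protein of the intermembrane space, had mean counts of 637.5 untreated, 191.5 after H2O2 and 207 in the knockdown. It changed by -2.02 ± 0.24 after H2O2 (normal test, adjusted p = 7.69e-16), a 4.06-fold fall, and by 0.40 ± 0.21 in the knockdown. COX19, like NDUFA11 and SDHAF1, had its high level in untreated cells, as the plot of mean counts shows. Other members such as NDUFAF5, UQCR11, ATP5G1 and ATP5G2 were also highest in untreated cells. Their mean counts, not scaled for depth, were close in both other groups. Relative to the median gene, ATP5G2 changed in the knockdown by 0.32 ± 0.087 (normal test, adjusted p = 0.00114). ATP5G1 changed by 0.30 ± 0.11 (normal test, adjusted p = 0.0234), and both were not called, as the deposited adjusted p did not pass. COX17, the copper chaperone that feeds the other copper carriers, had mean counts of 499 untreated, 564.5 after H2O2 and 867 in the knockdown, and rose by 0.91 ± 0.15 in the knockdown (normal test, adjusted p = 9.87e-09). COX10 and COX15, which make the haem of complex IV, had 170.5 to 246.5 and 519.5 to 761.5 mean counts and passed in neither comparison.

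**Figure D4:**
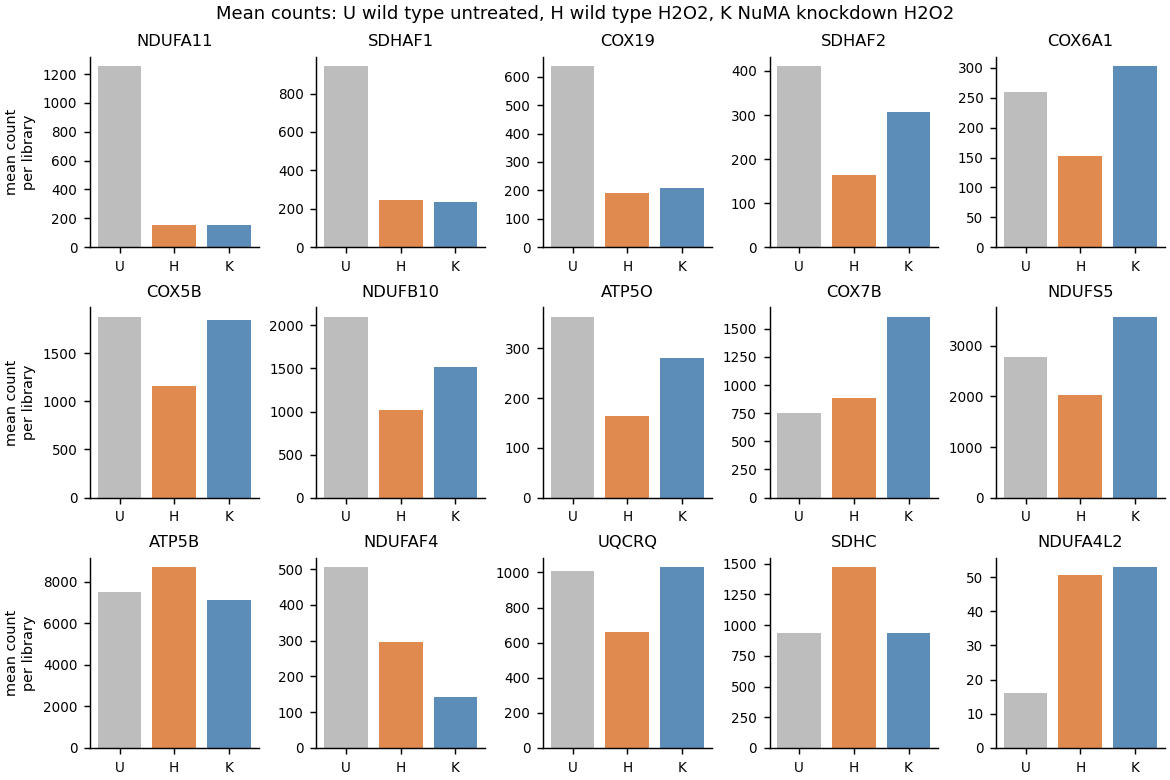
Mean counts per library (vertical axes, each starting at 0) of 15 members in untreated wild type cells (U), wild type cells after H2O2 (H) and NuMA knockdown cells after H2O2 (K). Bars are means of 2 libraries, not scaled for depth, with no values per library. NDUFA11, SDHAF1 and COX19 are high in U alone, COX7B is highest in K, and NDUFAF4 steps down from U to H to K.

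In complex V the called falls after H2O2 lay outside the F1 part, which holds the catalytic sites and is taken here with its rotor subunits. Of the 5 subunits of F1 0 fell after H2O2, with a median of -0.10. ATP5D, at -0.70 ± 0.22, was the 1 with an unadjusted p under 0.05 in the normal test. Of 10 subunits of the membrane part and the peripheral stalk 7 fell, with a median of -0.999. In the knockdown 3 of 5 and 6 of 10 rose, with a median of 0.65 in each. Of all tested genes 9.6% fell after H2O2 and 6.81% rose in the knockdown. The difference between F1 and the rest was not tested. ATP5A1 and ATP5B, the alpha and beta subunits that form the catalytic sites, had mean counts of 3953.5 untreated, 4511.5 after H2O2 and 3921 in the knockdown and of 7488 untreated, 8702 after H2O2 and 7095.5 in the knockdown. ATP5A1 changed by -0.10 ± 0.21 and 0.089 ± 0.084, and ATP5B by -0.074 ± 0.20 and -0.0034 ± 0.076, none past the threshold. The 95% interval of ATP5B ran from -0.46 to 0.31 after H2O2 and from -0.15 to 0.15 in the knockdown. ATP5C1, the gamma subunit of the rotor, had mean counts of 1717 untreated, 2004 after H2O2 and 3259.5 in the knockdown, with changes of -0.068 ± 0.20 after H2O2 and a rise of 0.99 ± 0.089 in the knockdown.

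In the peripheral stalk, ATP5O, which joins that stalk to F1, had mean counts of 364 untreated, 163 after H2O2 and 281.5 in the knockdown. It changed by -1.45 ± 0.24 after H2O2 (normal test, adjusted p = 2.76e-08) and by 1.08 ± 0.21 in the knockdown (normal test, adjusted p = 4.92e-06), with wild type cells after H2O2 lowest. ATP5H, subunit d of the stalk, had mean counts of 996.5 untreated, 621.5 after H2O2 and 1044 in the knockdown, with changes of -0.97 ± 0.22 and 1.04 ± 0.13, both past the threshold. ATP5I, subunit e of the membrane part, had few counts, 56 untreated, 19.5 after H2O2 and 24 in the knockdown, and fell by 1.77 ± 0.47 after H2O2 (normal test, adjusted p = 0.000937). The overlapping gene MYL5 had 290.5, 121 and 156 mean counts in the same groups, and as the strand setting of the counting is not given, reads of such pairs cannot be told apart. ATP5G1, ATP5G2 and ATP5G3 encode the same mature c subunit of the proton-carrying ring. ATP5G1 had mean counts of 1814 untreated, 1064 after H2O2 and 1073 in the knockdown, ATP5G2 had 4496.5 untreated, 2701 after H2O2 and 2762.5 in the knockdown, and ATP5G3 had 2898.5 untreated, 2246.5 after H2O2 and 2533.5 in the knockdown. ATP5G1 and ATP5G2 fell by 1.06 ± 0.21 and 1.03 ± 0.19 after H2O2, while ATP5G3 at -0.66 ± 0.20 did not pass, and none of these genes was called in the knockdown. ATP5S, a coupling factor grouped here with the assembly factors, had 185 to 202 mean counts and passed in neither comparison.

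The isoforms that are restricted to certain tissues were low. COX4I2, the isoform of lung, had 0 mean counts untreated, 3 after H2O2 and 2.5 in the knockdown, and COX6A2, the isoform of heart and skeletal muscle, had 0 in every group. COX7A1, the muscle isoform, had 3 untreated, 12.5 after H2O2 and 12 in the knockdown, which is 6.51 mean counts per kb untreated against 3671 for COX7A2, the isoform found in most tissues. NDUFA4L2, a paralogue of the complex IV subunit NDUFA4, was the member that rose after H2O2. It had mean counts of 16 untreated, 50.5 after H2O2 and 53 in the knockdown and changed by 1.31 ± 0.50 (normal test, adjusted p = 0.0316), a call that was lost at an adjusted p under 0.01 and, with an adjusted p of 0.0522 in the same normal test, where no filter on genes was used. NDUFA4 itself had mean counts of 2102.5 untreated, 2720.5 after H2O2 and 3047.5 in the knockdown and passed in neither comparison. Per kb, untreated cells had 18.1 mean counts of NDUFA4L2 and 2788 of NDUFA4.

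Some members had levels far below those of their complex, and the annotation places much of their coding sequence inside another gene. Of 98 members other than isoforms, paralogues and read-through genes, 20 shared at least 40% of their coding bases with exons of another gene, and 8 of these had under 100 mean counts in every group (ATP5I, COX16, COX20, NDUFA13, NDUFA7, NDUFB8, NDUFS7 and NDUFV2). Of the other 78, SDHAF3 was the 1 member under 100 mean counts. Averaged over the groups, the median level was 266 mean counts per kb in the 20 and 1217 in the 78. NDUFV2, a core subunit of complex I, had mean counts of 5.5 untreated, 9.5 after H2O2 and 9 in the knockdown, with 84.7% of its coding bases shared. Of members described above as rising in the knockdown, SDHAF2 shared 66.8%, ATP5O 62.6%, COX6A1 53.5% and SDHD 47.7%, while COX7B and NDUFS5 shared 0%. How reads that lie in exons of 2 genes were counted is not given. The levels and changes of members with a large shared part are therefore uncertain. The part of the overlap in low levels or in changes was not tested.

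**Figure D5:**
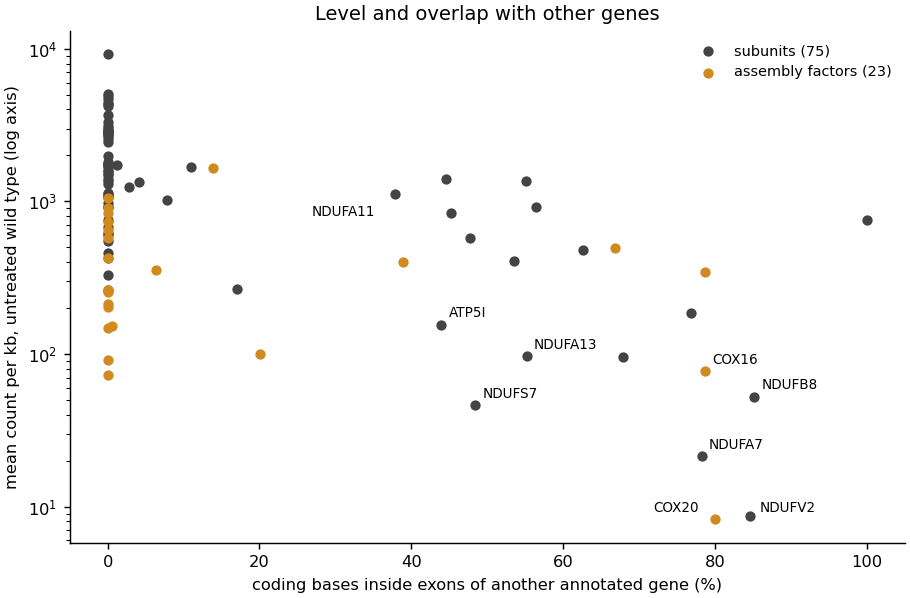
Mean count per kb of transcript in untreated wild type cells (vertical log axis) against the percent of coding bases that lie inside exons of another annotated gene (horizontal axis). Points are 98 members, subunits dark and assembly factors orange. The members named at the lower right, such as NDUFV2, COX20 and NDUFA7, combine a large shared part with a low level, and NDUFA11 with 37.8% shared has 1113 per kb.

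Promoter sequences are shown for members that moved in different ways, from RefSeq in build GRCh38.p14, as the 250 bases before the annotated start, 5′ to 3′ on the strand of the gene. Capitals mark the core motif of NRF1 (CGCATGCG) or of ETS factors (CCGGAAG, or CTTCCGG on the other strand), both factor families being known regulators of respiratory genes. NDUFA11, at chr19:5903791-5904040 on the minus strand, and SDHAF1, at chr19:35994938-35995187 on the plus strand, are shown because they fell most after H2O2 among their complex's members. COX6A1, at chr12:120437863-120438112, and SDHD, at chr11:112086623-112086872, both on the plus strand, rose in the knockdown, and COX6A1 also fell after H2O2. NDUFAF4, at chr6:96897892-96898141 on the minus strand, fell in both comparisons.
NDUFA11: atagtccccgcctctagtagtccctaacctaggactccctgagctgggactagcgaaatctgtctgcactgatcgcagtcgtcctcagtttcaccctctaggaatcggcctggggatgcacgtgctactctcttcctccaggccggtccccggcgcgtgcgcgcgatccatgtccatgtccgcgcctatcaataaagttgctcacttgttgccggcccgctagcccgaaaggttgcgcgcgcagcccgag
SDHAF1: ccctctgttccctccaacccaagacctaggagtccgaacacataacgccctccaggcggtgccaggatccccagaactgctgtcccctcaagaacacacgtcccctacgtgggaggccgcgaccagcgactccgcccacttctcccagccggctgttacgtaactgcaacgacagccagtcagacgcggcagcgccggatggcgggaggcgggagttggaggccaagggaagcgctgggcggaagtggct
COX6A1: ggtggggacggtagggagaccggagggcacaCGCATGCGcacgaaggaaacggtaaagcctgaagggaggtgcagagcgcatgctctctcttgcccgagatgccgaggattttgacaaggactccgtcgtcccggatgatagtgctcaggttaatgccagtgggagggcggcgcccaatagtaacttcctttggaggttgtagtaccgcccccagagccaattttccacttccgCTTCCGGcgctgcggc
SDHD: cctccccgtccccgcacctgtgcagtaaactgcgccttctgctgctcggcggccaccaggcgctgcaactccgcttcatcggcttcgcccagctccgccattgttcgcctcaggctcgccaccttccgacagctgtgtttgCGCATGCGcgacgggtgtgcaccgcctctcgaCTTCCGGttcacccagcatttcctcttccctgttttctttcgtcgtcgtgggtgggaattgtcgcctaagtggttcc
NDUFAF4: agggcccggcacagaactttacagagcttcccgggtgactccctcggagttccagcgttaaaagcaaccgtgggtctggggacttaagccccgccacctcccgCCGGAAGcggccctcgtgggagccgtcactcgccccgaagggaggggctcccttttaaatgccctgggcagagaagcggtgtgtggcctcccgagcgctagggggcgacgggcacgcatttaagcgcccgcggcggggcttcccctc
The COX6A1 window holds an NRF1 core whose first base lies 219 bases before the start and an ETS core at 16, and the SDHD window an NRF1 core at 109 and an ETS core at 77. The NDUFAF4 window holds an ETS core 147 bases before the start, and these letters are not in the windows of NDUFA11 and SDHAF1. The printed windows were picked and do not stand for all members with the same call.

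Over all members, 88 of 109 matched a RefSeq promoter by symbol, with 109 windows of 300 bases that run from 250 before the start to 50 after it. Both strands were searched, and since the ETS core ends in the letters that open the YY1 core, a window can hold both at the same bases. The NRF1 core was in 13.8% of the members' windows, 2.02% of 35116 windows of all genes and 3.15% of 17207 windows of tested genes. The ETS core was in 26.6%, 10.3% and 15.6%, and the YY1 core, AAGATGGCG, in 10.1%, 1.75% and 3.07%. At least 1 of the 3 cores was in 41.3% of the members' windows against 13.1% of all and 20.3% of those of tested genes. Windows of members that fell after H2O2 held the NRF1 core in 16.7% and the ETS core in 38.9%. Windows of members not called there held them in 13.4% and 22.4%. In the knockdown the shares were 16.3% and 37.2% for members that rose, and 13.1% and 19.7% for those not called. The differences between calls were not tested. All these shares describe letters and not binding.

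Members were also shorter genes than the rest, and the change moved with gene span. At 50 mean counts or more, the 92 members had a median span of 15188.5 bases, and all genes one of 31381.5. Spearman's rho between change and span was 0.27 after H2O2 and -0.24 in the knockdown over all these genes, and 0.35 and -0.30 over members. These are descriptions across genes, which share libraries and are not independent replicates. Between the lower and upper quartiles of the members' spans, 14 of 46 members fell after H2O2, against 16.3% of 3701 genes. In the knockdown 23 of 46 members rose, against 12.8% of 3725 genes. The median change of the members there was -0.62 after H2O2 and 0.54 in the knockdown, against -0.12 and 0.067 over all genes in the same range of spans.

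The respiratory genes outside the name rule were read from lists. Of the 13 mRNAs that the mitochondrial genome makes for the same complexes, 11 fell after H2O2, with a median change of -1.36. In the knockdown 11 rose, with a median of 0.96. Of all tested genes 9.6% fell after H2O2 and 6.81% rose in the knockdown. The opposite direction had 0 calls among these mRNAs in each comparison, and 0 at an unadjusted p under 0.05 in the normal test. MT-ND4L and MT-ATP8 were called in neither comparison. MT-ND4L had 4665.5 mean counts untreated, 5503 after H2O2 and 4796 in the knockdown, with changes of -0.053 ± 0.19 and 0.093 ± 0.21. MT-ATP8 had 75.5, 26 and 56 mean counts in the same order of groups. MT-ND3, a complex I subunit, had 144736 mean counts untreated, 30407.5 after H2O2 and 52130 in the knockdown, with changes of -2.54 ± 0.19 and 1.07 ± 0.076. MT-CO3, a complex IV subunit, had 223688, 86694.5 and 198252 mean counts, with changes of -1.66 ± 0.20 and 1.48 ± 0.069. In both transcripts the knockdown level lay between the other groups. Of 5 electron carriers and their partners, 2 fell and 1 rose after H2O2, against 9.6% and 16.6% of all tested genes. Their median change was -0.20. CYC1, the haem subunit of complex III, fell by 1.37 ± 0.20 from 3612 to 1714.5 mean counts. ETFB fell by 1.13 ± 0.23, while ETFA rose by 0.50 ± 0.21. CYCS, at -0.20 ± 0.19, and ETFDH, at 0.49 ± 0.26, were not called. In the knockdown 1 of 5, ETFB, rose by 0.87 ± 0.19, against 6.81% of all tested genes that rose.

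Assembly factors with other names gave 11 lower and 1 higher of 35 tested after H2O2, with a median of -0.58, against 9.6% lower and 16.6% higher of all tested genes. SCO2, a copper chaperone of complex IV, had 494.5 mean counts untreated, 138.5 after H2O2 and 174.5 in the knockdown, a change of -2.12 ± 0.25 after H2O2, while PET100 fell by 2.78 ± 0.40 at 117 mean counts or fewer. TIMMDC1, a membrane-arm factor of complex I, rose after H2O2 by 0.62 ± 0.21 and fell in the knockdown by 0.38 ± 0.11. In the knockdown 5 of 34 rose and 6 fell, against 6.81% and 14.4% of all tested genes, so that the share that fell was near that of all genes. HIGD1A rose most, by 1.22 ± 0.12, and COA7 fell most, by 1.15 ± 0.17. The enzymes of the tricarboxylic acid cycle feed electrons to the chain. In that list 4 of 16 rose and 1 fell after H2O2, against 16.6% and 9.6% of all tested genes. In the knockdown 0 rose and 5 fell (2 higher and 6 lower at an unadjusted p under 0.05 in the normal test), against 6.81% and 14.4%. IDH3A, a subunit of the NAD-dependent isocitrate dehydrogenase, had 88.5 mean counts untreated, 207 after H2O2 and 71.5 in the knockdown, with changes of 0.93 ± 0.29 and -1.23 ± 0.27, and IDH3B fell after H2O2 by 1.05 ± 0.21. In coenzyme Q synthesis 1 of 10 (COQ4, by 1.06 ± 0.23) fell after H2O2, near the 9.6% of all tested genes that fell. In the knockdown ADCK3 rose by 0.92 ± 0.21 while PDSS1, by 0.90 ± 0.35, and PDSS2 fell. That is 1 and 2 of 10, near the 6.81% and 14.4% of all tested genes.

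Of 14 tested regulators of mitochondrial biogenesis, 2 (GABPA and YY1) rose after H2O2, against 16.6% of all tested genes, and 2 (PPRC1 and C10orf2) fell, against 9.6%. GABPA rose by 0.65 ± 0.25, from 183 to 351 mean counts, and C10orf2, the mitochondrial DNA helicase, fell by 1.78 ± 0.22, from 1204.5 to 428. In the knockdown 0 of 13 rose (1 at an unadjusted p under 0.05 in the normal test) and 4 fell, namely POLG, PPRC1, TEFM and TFAM, against 6.81% and 14.4% of all tested genes. TEFM, the elongation factor of mitochondrial transcription, fell most, by 1.15 ± 0.40, from 77.5 to 28 mean counts. TFAM, which packages mitochondrial DNA and starts its transcription, fell by 0.67 ± 0.15, from 652.5 to 334.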

How the data were processed

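RNA of 6 RPE1 libraries was sequenced, 2 in each of 3 groups set by the labels' agent and genotype. STAR 2.5, DESeq2, DESeq and hg38 appear, without roles or settings, per the submitters' processing notes. The counting tool, strand setting and labelling time are not given in the sources used here. The authors deposited 2 tables with a pooled signal value per group, a log2 fold change and a p-value with its adjusted p for each gene. Each signal value was a mean count with 1 added, over gene length, times a constant, and mean counts were read from its steps within a tolerance of 1e-05. GENCODE release 29 held 94.1% of the gene IDs and gave 86.0% of the lengths as mean transcript lengths. For 10 members (ATP5G2, COX11, COX6B1, COX7B, NDUFA6, NDUFB9, NDUFC2-KCTD14, NDUFV1, SDHD and UQCR10) it did not settle the length, so a shared factor may be missing from their mean counts but not from their fold changes. Depth is known for groups, not for single libraries.

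The planned count test needs values of each library and was not run. The SE of a change was taken as the deposited log2 fold change over the normal quantile that its p-value corresponds to, or as the median of 101 neighbours in mean count for 187 genes after H2O2 and 243 in the knockdown. Centring used the median tested gene of at least 50 mean counts, because among genes over 500 mean counts the deposited p-value had a median of 0.962 near a log2 fold change of 0 and 0.172 near the median gene after H2O2, and of 0.938 and 0.00960 in the knockdown. A normal test with Benjamini-Hochberg adjustment followed over all tested genes, and calls needed an adjusted p under 0.05 in it and as deposited. The procedure was tested on simulated data in Python 3.11.15 with numpy 2.4.6, scipy 1.17.1 and pandas 2.3.3, and figures used matplotlib 3.10.9. The members, lists, tests and alternatives were chosen with earlier results of these data known. By rule, full statistics went to NDUFA11, the 5 largest called rises and falls per comparison, the called subunit and assembly factor with the largest change per complex, a set of core subunits and isoform pairs, and the called gene that changed most in each direction of each list. Other genes were named after their values were seen. The values of 1 member are not reported here.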

Additional observations from a re-analysis of the deposited data

How the results depend on the processing

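No paired analysis was possible because the tables hold no values per library, and leaving out single libraries was not run for the same reason. The 34 members lower after H2O2 became 54 where the centred test alone was used, and 22 of 60 tested members (36.7%) where those with a named pseudogene and the read-through genes were left out. The 1 member higher after H2O2 became 7 without centring, 3 with the trend of gene span removed, 2 with the standard error of neighbours, and 0 with no filter on genes, with genes of at least 50 mean counts alone, and at an adjusted p under 0.01. The 42 members higher in the knockdown became 18 of 60 (30.0%) without members with a pseudogene, the fewer members tested being part of that construction. The 3 members lower became 9 without centring, 5 with scaling by total counts and 1 without members with a pseudogene. The difference of medians between subunits and assembly factors in the knockdown was 0.19 without members with a pseudogene. The cause of these shifts was not tested. Counts were within 1.5 times under the other alternatives, and leaving out members that share at least 40% of coding bases gave 25 of 81 lower after H2O2 and 36 of 81 higher in the knockdown.

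Of 483 values, over the 35 members that the naming rule takes, under an alternative, 427 kept their direction and their side of an adjusted p of 0.05 in the centred test alone, without the deposited p that a call also needs. Of the rest 28 no longer passed that test, 6 newly passed it and 22 changed sign, and the cause was not tested. Without centring, the changes after H2O2 were 0.24 for COX7B, 0.22 for SDHD, 0.18 for COX17, 0.089 for SDHA, 0.19 for SDHB, 0.19 for ATP5A1 and 0.22 for ATP5B, and in the knockdown -0.019 for NDUFA11, -0.057 for SDHAF1, -0.041 for NDUFAF5, -0.23 for SDHB, -0.20 for ATP5A1 and -0.054 for COX7A1. With the span trend removed they were 0.27 for COX7B, -0.077 for NDUFS1 and 0.24 for ATP5B after H2O2, and -0.091 for SDHAF1, 0.079 for NDUFS1 and -0.058 for COX7A1 in the knockdown. Centring on all tested genes gave -0.015 for NDUFS1 after H2O2, and scaling by total counts gave -0.11 for SDHB and -0.078 for ATP5A1 in the knockdown. Members with few counts, such as NDUFV2 with an SE of 0.90 after H2O2, had wide errors, and the part of depth in them was not tested.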
